A study of Mus musculus with 2 samples.

Results

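TGF-beta, bone morphogenetic protein (BMP) and activin signalling genes were examined in mouse livers of embryonic stage E12.5. The list was set by gene symbol and held 49 genes, of which 47 were measured, among 18193 genes measured in all. A gene was measured where at least 1 probe set of the array was annotated with its symbol and no other, and Bmp3 and Gdf15 had no such probe set. The list held 16 ligand genes, 11 receptor genes, 10 genes for latency proteins and extracellular antagonists, 7 Smad genes and 5 genes commonly read as targets. One array carried RNA of mesothelial cells, sorted by FACS as cells positive for podoplanin (Pdpn) from trypsin-digested E12.5 livers, and the other carried RNA of E12.5 liver cells. Both came from wild-type C57Bl6 embryos without treatment stated in the labels, and the sources used here do not give the number of embryos. The labels do not say whether Pdpn-positive cells had been taken out of the liver cells. With 1 array for each group and no replicate, a test was not possible, no p-value is given, and every statement describes these 2 arrays. No value here shows whether a gene differed through more cells of a type or through more RNA per cell, which cannot be told apart in bulk RNA.

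Ligands of this family are secreted dimers that bring together a type I and a type II receptor kinase on the cell surface. The activated type I receptor phosphorylates receptor Smads, which join Smad4 and enter the nucleus to control transcription. TGF-beta is secreted in a latent form held in the matrix by latent TGF-beta binding proteins, and BMPs and activins are held in check by secreted antagonists. In the early liver, BMP from the septum transversum mesenchyme takes part in the induction of hepatoblasts, and TGF-beta drives mesothelial cells towards mesenchymal fates in several organs.

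The comparison asked how the sorted mesothelial cells differed from liver cells in the components of this signalling system. Of the 47 measured genes, 36 were brighter in mesothelial cells by at least 2-fold, and 0 were brighter in liver cells by that much. The other 11 were Bmp2 and Smad2, which differed by less, and 9 genes below a floor. A gene was above the floor where at least 1 of its 2 intensities reached the median probe set of its array, 65.8 in mesothelial cells or 42.3 in liver cells. By this rule 76.6% of the listed genes were called higher in mesothelial cells, beside 30.0% of all 18193 genes measured, and 0% were called higher in liver cells, beside 2.53% of all genes. With no floor the count was 37 of 47, beside 36.2% of all genes. At 4-fold the count was 21 of 47, beside 10.5% of all genes, and at 8-fold it was 10 of 47, beside 3.16% of all genes. The genes were listed with earlier results of these arrays known, so the shares describe the list and do not test it.

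A difference is the log2 intensity of a gene in mesothelial cells less its log2 intensity in liver cells. Over the 47 genes the median was 1.86, with an interquartile range of 1.21 to 2.67, while the median over all genes was 0.66, so a typical gene was 1.58-fold brighter on the mesothelial array. Relative to that median the listed genes stood 1.20 higher, and 42 of 47 lay above it. Medians by role lay close together, at 1.69 for ligands, 1.86 for receptors, 1.87 for latency proteins and antagonists, 1.72 for Smads and 1.91 for targets. Their ranges overlapped in every case. The spread between different probe sets of the same gene, pooled over 5323 genes, had an SD of 0.70, and it says nothing of how embryos, sorts or arrays vary.

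**Figure D1:**
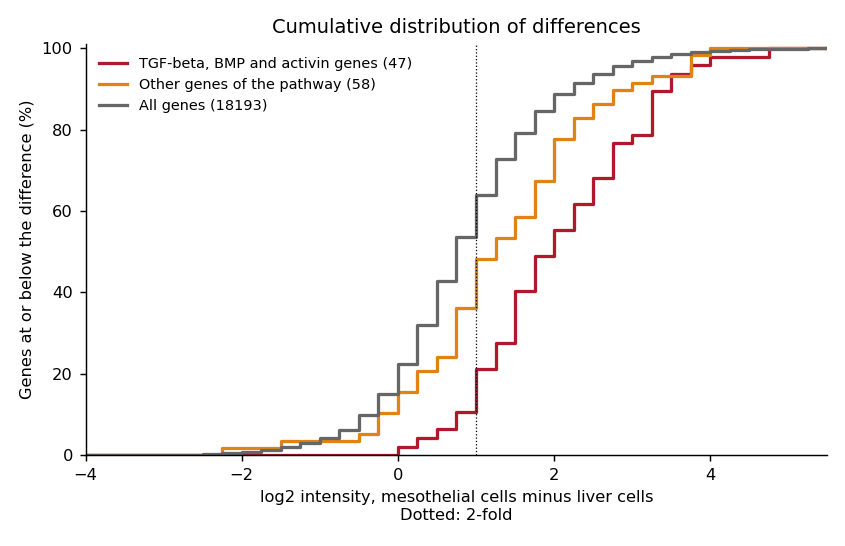
Cumulative share of genes (y axis, percent) at or below a given log2 difference, mesothelial cells minus liver cells (x axis, in steps of 0.25), for the 47 listed genes, 58 other genes of the pathway and all 18193 genes. The curve of the listed genes lies to the right of that of all genes up to a difference of 4.5, and 21.3% of the listed genes but 63.9% of all genes lie at or below the dotted 2-fold line.

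The scale between the arrays decided how many genes passed 2-fold, since the deposited values had not been brought to one distribution. After each array was centred on the median of all its probe sets, 27 of the 47 genes were still called higher in mesothelial cells, beside 15.8% of all genes, and 24 were after quantile normalization, beside 13.7% of all genes. The 18 probe sets of hybridisation controls, RNAs added in known amounts before hybridisation, gave different answers by how they were used. Centring each array on their median took 1.08 off every difference and left 20 genes, beside 9.62% of all genes. Removing the median of their paired differences took off 0.02 and left 36 genes, beside 29.5% of all genes. The count higher in liver cells was 0 under each of the 5 scalings tried, although 6.11%, 7.33%, 11.8% and 2.61% of all genes were called so after these 4. All of these scalings but quantile normalization take one amount off every difference. A gene that passes the largest shift, 1.08, therefore passes the smaller ones. Of all genes, at most the 9.62% left by that shift can pass under all 5 scalings. The 20 listed genes it left also passed quantile normalization, and so kept a mesothelial excess of 2-fold or more under all 5: Tgfb2, Tgfb3, Bmp4, Bmp6, Bmp7, Gdf10, Inha, Tgfbr1, Bmpr1a, Bmpr1b, Acvr1, Ltbp1, Ltbp3, Ltbp4, Bmper, Fstl1, Smad4, Smad6, Id4 and Tgfbi. A scaling does not touch disagreement between probe sets. Of these genes, Tgfbr1, Bmpr1b, Acvr1 and Ltbp3 were not called with the median over probe sets. Their median differences were 0.67, 0.84, 0.46 and 2.08, the last from intensities below the floor.

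**Figure D2:**
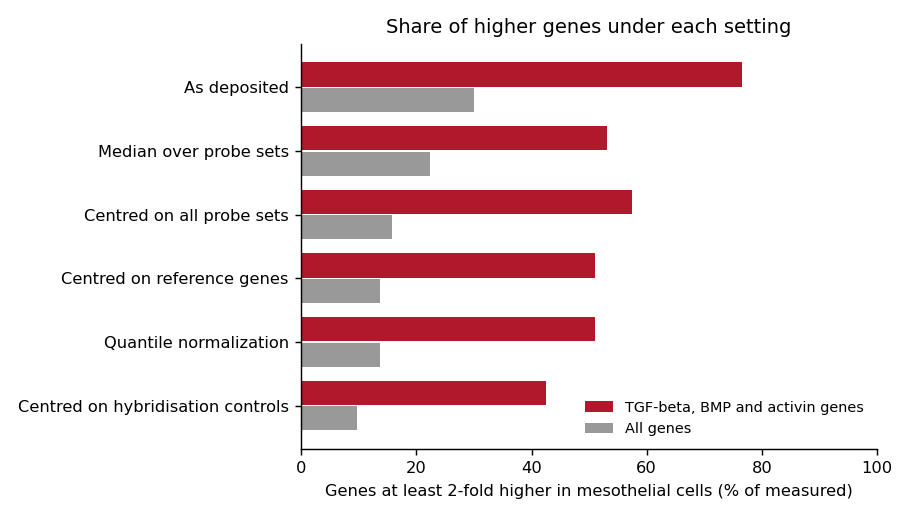
Share of the 47 listed genes and of all genes (x axis, percent of measured genes) that were above the floor and at least 2-fold higher in mesothelial cells under 6 settings (y axis). Bars start at 0, and the upper bar of each pair is the listed genes. Their share runs from 76.6% as deposited to 42.6% after centring on hybridisation controls, against 30.0% and 9.62% of all genes.

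Markers of some other cell types moved with these genes, and those of others did not. By the 2-fold rule, 30.0% of all genes were called higher in mesothelial cells and 2.53% in liver cells. Pdpn, on which the cells were sorted, read 3877 in mesothelial cells, against 100 in liver cells, which checks the labels. Of 10 mesothelial markers, 9 met the 2-fold rule in the sorted cells, and the median difference of the 10 was 4.43. Their intensities summed to 24678 in mesothelial cells, against 3661 in liver cells. Alcam, at 13424.5 in mesothelial cells, against 3207 in liver cells, made up most of both sums. Muc16 and Msln read at the level of bacterial control probe sets in liver cells. All 9 markers of stellate and submesothelial mesenchyme also met the 2-fold rule, with sums of 7896 in mesothelial cells, against 1414 in liver cells. So did all 7 megakaryocyte markers, with sums of 22860.3 in mesothelial cells, against 6609.6 in liver cells. The rule was met by 5 of 6 macrophage markers, with sums of 6987 in mesothelial cells, against 1803 in liver cells, and by 5 of 8 muscle markers, with sums of 3006.5 in mesothelial cells, against 1168 in liver cells, while Acta1 was called higher in liver cells. Of 8 hepatoblast markers, 2 met it, with sums of 69349.8 in mesothelial cells, against 45681 in liver cells, and of 9 endothelial markers 3 did, with sums of 2850.1 in mesothelial cells, against 1531 in liver cells. Both shares were near the 30.0% of all genes. The median differences of these lists, 0.65 and 0.16, were not above the 0.66 of all genes. Erythroid markers ran the other way, with 4 of 6 called higher in liver cells, and sums of 8919 in mesothelial cells, against 24177 in liver cells. Granulocyte markers did likewise in 5 of 6, with sums of 2855 in mesothelial cells, against 6795 in liver cells. The exception Mpo, at 2552 in mesothelial cells, against 1477 in liver cells, made up most of the mesothelial sum. No list was at 0 on either array, and the part of each of these cell types in the results below was not tested.

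**Figure D3:**
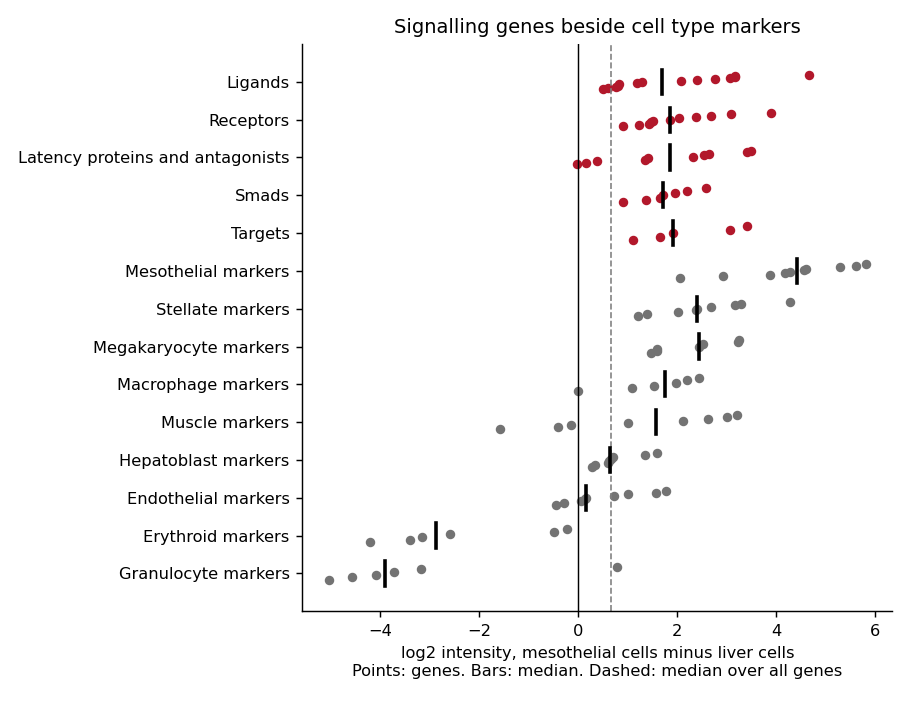
Log2 difference, mesothelial cells minus liver cells (x axis), for each listed gene by role (red) and for markers of 9 cell types (grey). Each gene has 1 point, from the probe set used for it, and a bar marks each median. Vertical spread within a row only separates the points. All 5 roles have medians between 1.69 and 1.91, below the mesothelial, stellate and megakaryocyte markers at 4.43, 2.40 and 2.45, close to the macrophage and muscle markers at 1.76 and 1.57, and above the hepatoblast markers at 0.65.

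Among the TGF-beta ligands, Tgfb3 differed most. Tgfb3 read 996 in mesothelial cells, against 39.0 in liver cells, 25.5-fold higher in mesothelial cells, and its difference of 4.67 ranked 37 among all 18193 genes. Its liver value lay just under the array median, and the gene had 1 probe set. Tgfb2 read 2932 in mesothelial cells, against 349 in liver cells, 8.41-fold higher, and its 4 probe sets agreed, with differences from 2.52 to 3.07 and an SD of 0.26. Tgfb1, the form best known from platelets and immune cells, read 492 in mesothelial cells, against 214 in liver cells. That is a difference of 1.20, or 2.30-fold, which was 0.56 after centring on all probe sets and 0.13 after centring on hybridisation controls, but 1.18 with their paired difference removed. The median over the 2 probe sets of Tgfb1 was 0.85, so its 2-fold call rested on the brighter one. The 3 TGF-beta ligands thus stood in the order Tgfb3, Tgfb2 and Tgfb1 by difference, with steps of more than the probe set SD of 0.70 between neighbours.

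The BMP ligands were uneven. Bmp4, the BMP of the septum transversum and other mesoderm, read 201 in mesothelial cells, against 22.2 in liver cells, 9.07-fold higher in mesothelial cells. Gdf10, a relative of Bmp3, read 1554 in mesothelial cells, against 172 in liver cells, 9.01-fold higher. Bmp7, which acts in kidney and other epithelia, read 196 in mesothelial cells, against 28.6 in liver cells, 6.85-fold higher, with 1.85 and 2.78 for its 2 probe sets above the floor and -0.02 for another, dim one. Bmp6, a regulator of hepcidin in the adult liver, read 71.4 in mesothelial cells, against 13.4 in liver cells, 5.33-fold higher from a value just above the floor. Bmp5, which acts in skeletal and limb patterning, read 77.4 in mesothelial cells, against 31.4 in liver cells, 2.46-fold higher, and the differences of its 3 probe sets ran from 1.02 to 1.30. Bmp2, close to Bmp4 in sequence and receptor use, was the exception. It read 166 in mesothelial cells, against 93.7 in liver cells, a difference of 0.83 that was near the median of all genes. It turned to -0.25 after centring on hybridisation controls but was 0.81 with their paired difference removed. Bmp4 and Bmp2 differed from each other by more than 3 times the probe set SD, as single probe sets on 1 pair of arrays.

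Activin and inhibin subunits were mostly dim. Inha, the alpha subunit that turns an activin beta subunit into an inhibin, read 69.3 in mesothelial cells, against 16.3 in liver cells, 4.25-fold higher in mesothelial cells. The beta subunit genes Inhba, at 56.5 in mesothelial cells, against 39.7 in liver cells, and Inhbb, at 33.7 in mesothelial cells, against 22.1 in liver cells, were below the floor, and their differences of 0.51 and 0.61 turned sign under some of the other scalings. Inhbe, a subunit gene of hepatocytes, read 9.3 in mesothelial cells, against 5.3 in liver cells, both within the level of bacterial control probe sets, which reached 16.2 on the mesothelial array and 10.5 on the liver array. Gdf11, which patterns the axial skeleton, was also below the floor at 18.4 in mesothelial cells, against 10.8 in liver cells. None of these 3 activin beta subunit genes was above the floor on either array.

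**Figure D4:**
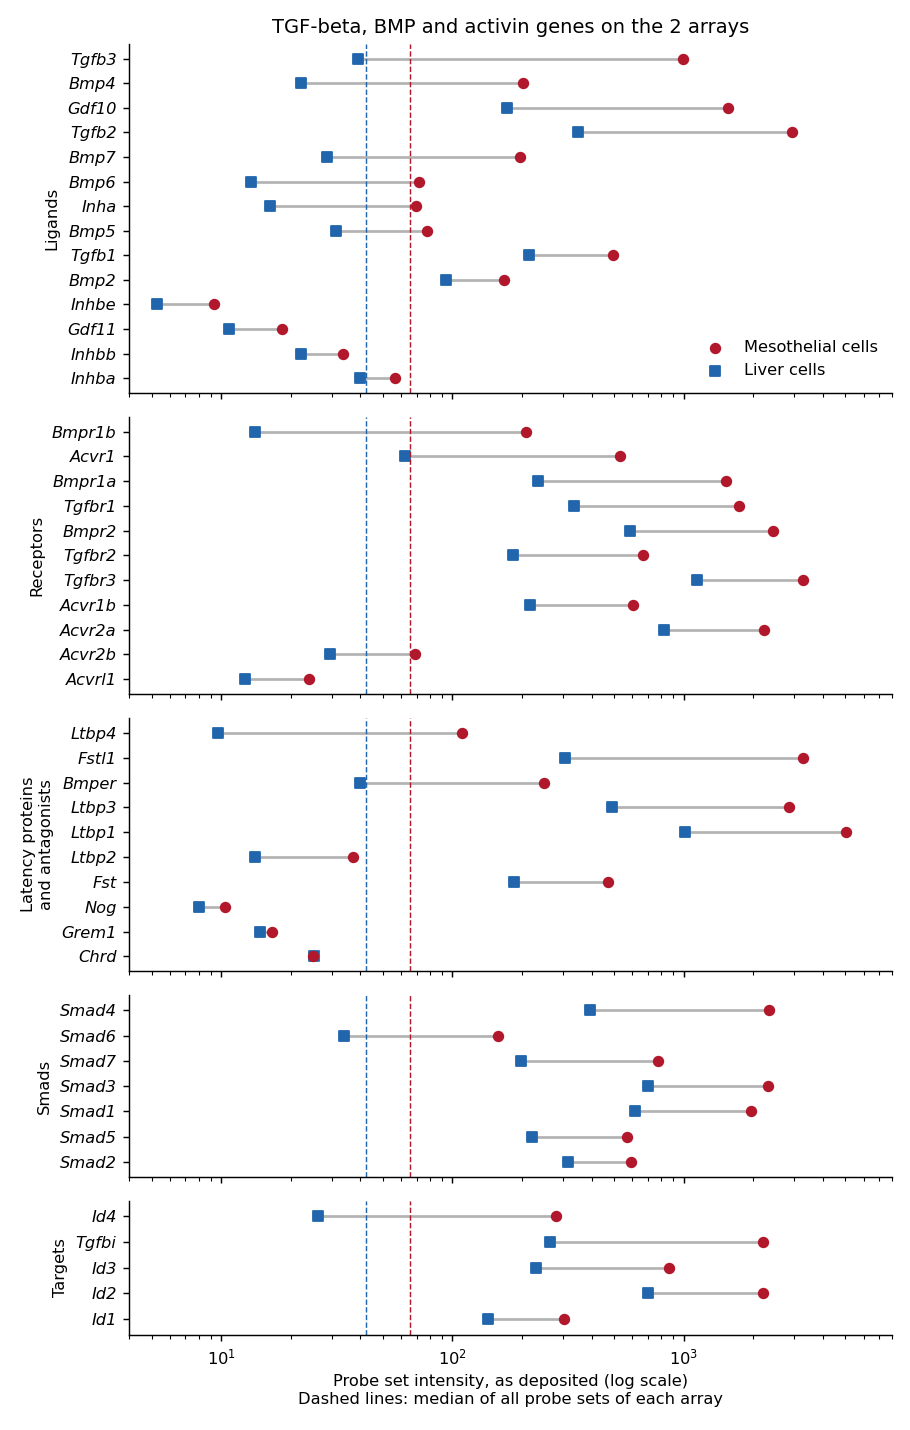
Probe set intensity as deposited (x axis, log scale) of the 47 genes in mesothelial cells (red circles) and liver cells (blue squares), by role and ordered by difference, with the median of all probe sets of each array as dashed lines. Only the 2 points of a gene can be compared, since different probe sets differ in brightness. The mesothelial point lies to the right in 46 of 47 genes, Chrd being the exception, and 77.6% of all genes were also brighter on that array.

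All 11 receptor genes were brighter in mesothelial cells, as were 77.6% of all genes, and 10 of them met the 2-fold rule, beside 30.0% of all genes. With the median over probe sets, Tgfbr3, Bmpr1a and Acvr2a kept that call and the other receptor genes did not. By that rule 22.3% of all genes were called. Bmpr1b, a type I BMP receptor best known from cartilage and ovary, led the group at 208 in mesothelial cells, against 14.0 in liver cells, 14.8-fold higher in mesothelial cells. Its other 2 probe sets were below the floor, with differences of 0.64 and 0.84. Acvr1, a type I receptor for BMPs, read 529 in mesothelial cells, against 62.4 in liver cells, 8.48-fold higher, while a second probe set above the floor differed by 0.46. Bmpr1a, the type I BMP receptor of most embryonic tissues, read 1520.1 in mesothelial cells, against 235 in liver cells, 6.47-fold higher. Of its 5 probe sets above the floor, 4 lay between 2.56 and 2.83 and the other at -0.20. Bmpr1a had 6 probe sets, beside 2 or 3 for each other receptor gene, so no other could be read alike by as many.

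The TGF-beta and activin receptors differed by 1.23 to 2.38. Tgfbr1, the type I TGF-beta receptor, read 1743 in mesothelial cells, against 336 in liver cells, 5.19-fold higher in mesothelial cells. Its probe sets disagreed, however: the others, both above the floor, differed by 0.67 and -1.87, the last being the 1 probe set of 68 above the floor among the listed genes that favoured liver cells by 2-fold or more. The type II partner Tgfbr2 read 665 in mesothelial cells, against 183 in liver cells, 3.63-fold higher, while its other probe sets, below the floor, differed by 1.70 and 0.23. Tgfbr3, betaglycan, a co-receptor that presents Tgfb2 and also binds inhibin, read 3291 in mesothelial cells, against 1146 in liver cells, 2.87-fold higher, and its 2 probe sets agreed to an SD of 0.20. Acvr1b, the type I activin receptor, read 603 in mesothelial cells, against 216 in liver cells, 2.79-fold higher. Its other probe set, below the floor, differed by 0.47, and the median over both was 0.98. The type II receptors shared by activins and BMPs, Acvr2a and Acvr2b, were 2.72-fold and 2.34-fold higher in mesothelial cells, with 2237 in mesothelial cells, against 822 in liver cells for Acvr2a and 69.1 in mesothelial cells, against 29.5 in liver cells for Acvr2b. The other Acvr2b probe sets were below the floor, with differences of 1.06 and 0.72. The 2 probe sets annotated with Acvr2a alone agreed, with an SD of 0.07. A probe set annotated with both Orc4 and Acvr2a, and so left out, ran the other way. It read 55.4 in mesothelial cells, against 149.7 in liver cells.

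Bmpr2, the type II BMP receptor, read 2425 in mesothelial cells, against 586 in liver cells, 4.14-fold higher in mesothelial cells, but 0.32 by the median over its 3 probe sets. By the probe sets used, the 4 type II receptors differed by 1.23 to 2.05 and the type I receptors above the floor by 1.48 to 3.89, so the ranges overlapped. Acvrl1, the type I receptor of endothelium, was the receptor gene below the floor, at 24.0 in mesothelial cells, against 12.7 in liver cells, with a difference of 0.92 that turned to -0.16 after centring on hybridisation controls but was 0.90 with their paired difference removed. Endothelial markers had a median difference of 0.16, and the part of endothelial cells in the Acvrl1 value was not tested.

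**Figure D5:**
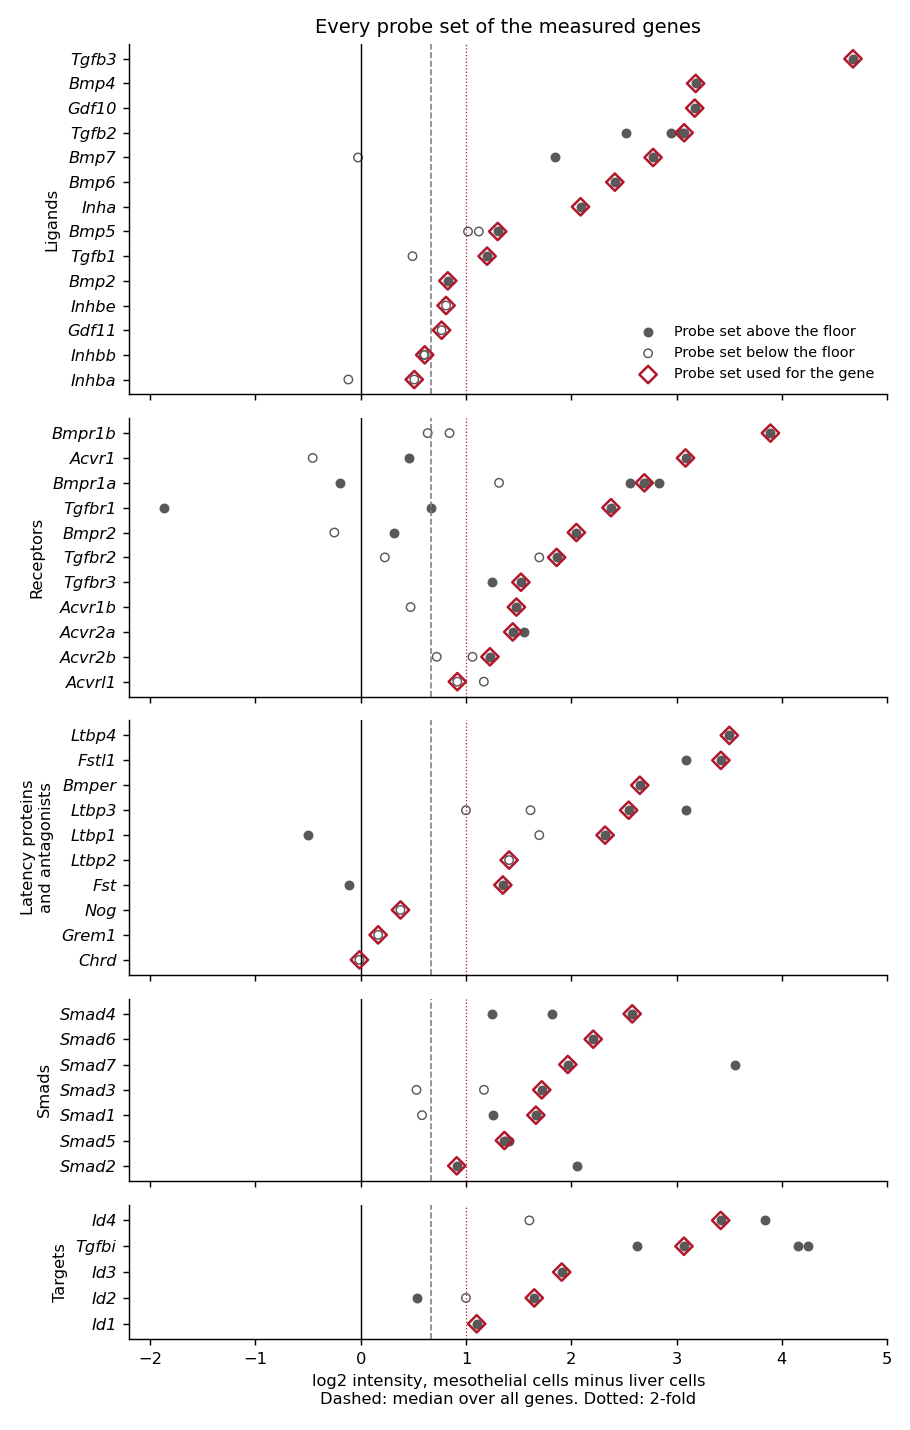
Log2 difference, mesothelial cells minus liver cells (x axis), of all 102 probe sets of the 47 genes, with filled points above the floor, open points below it and a red diamond around the probe set used. Of the 68 probe sets above the floor, 58 reached 2-fold on the mesothelial side (dotted line) and 4 lay below 0, 1 each of Tgfbr1, Bmpr1a, Ltbp1 and Fst.

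Latency proteins were higher in mesothelial cells, whereas several BMP antagonists were not measured above the floor. Ltbp4, a binding protein of elastic fibres, read 109.8 in mesothelial cells, against 9.7 in liver cells. The liver value was within the bacterial controls, so the gene was at least 10.5-fold higher in mesothelial cells. Ltbp3 read 2855 in mesothelial cells, against 489 in liver cells, 5.84-fold higher, and its 2 probe sets above the floor differed by 2.54 and 3.09. The one used, at 2.54, is of a kind that can cross-hybridise. Ltbp1 read 5051 in mesothelial cells, against 1010.5 in liver cells, 5.0-fold higher, while another probe set above the floor read -0.50. Ltbp2, a microfibril protein that does not bind latent TGF-beta, was below the floor at 37.2 in mesothelial cells, against 14.0 in liver cells. The 3 latency genes that bind TGF-beta were thus 5.0-fold to at least 10.5-fold higher by the probe set used, and remained at least 2-fold higher under all 5 scalings.

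Of the secreted modulators, Fstl1, a follistatin-like glycoprotein, read 3291 in mesothelial cells, against 307 in liver cells, 10.7-fold higher in mesothelial cells, and its 2 probe sets agreed to an SD of 0.23. Bmper, which binds BMPs outside the cell, read 249.9 in mesothelial cells, against 39.8 in liver cells, 6.28-fold higher. Fst, follistatin, which binds activin, read 469 in mesothelial cells, against 184 in liver cells, 2.55-fold higher, but its second probe set above the floor differed by -0.11. The classic BMP antagonists were dim on both arrays. Chrd read 24.9 in mesothelial cells, against 25.1 in liver cells, and Grem1 read 16.5 in mesothelial cells, against 14.7 in liver cells. Nog read 10.4 in mesothelial cells, against 8.0 in liver cells, within the bacterial controls on both arrays. Each of these 3 genes had 1 probe set, and a dim probe set does not show that the RNA was absent.

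The Smad genes were all above the floor, beside 66.1% of all genes. Of the 7, 6 met the 2-fold rule on the mesothelial side, beside 30.0% of all genes. Smad4, the common partner of the receptor Smads, differed most, at 2346 in mesothelial cells, against 393 in liver cells, 5.97-fold higher in mesothelial cells. Its 3 probe sets ranged from 1.25 to 2.58. The BMP receptor Smads Smad1 and Smad5 were 3.17-fold and 2.58-fold higher in mesothelial cells, with 1957 in mesothelial cells, against 617 in liver cells for Smad1 and 566.5 in mesothelial cells, against 219.9 in liver cells for Smad5. The probe set used for Smad1 is of a kind that can cross-hybridise, and another Smad1 probe set above the floor differed by 1.26. The 3 probe sets of Smad5 lay between 1.37 and 1.41. Of the TGF-beta receptor Smads, Smad3 read 2317 in mesothelial cells, against 703 in liver cells, 3.29-fold higher. The other Smad3 probe sets, below the floor, differed by 1.17 and 0.53. Smad2 read 593 in mesothelial cells, against 315 in liver cells, a difference of 0.91 that turned to -0.16 after centring on hybridisation controls but was 0.89 with their paired difference removed. Its second probe set differed by 2.05. Smad1, Smad3 and Smad5, at differences of 1.66, 1.72 and 1.37, lay within the probe set SD of each other, across both branches of receptor Smads.

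The inhibitory Smads are induced by the pathway and act as feedback on it. Smad6, which chiefly restrains BMP signalling, read 157 in mesothelial cells, against 33.9 in liver cells, 4.62-fold higher in mesothelial cells. Smad7, which restrains TGF-beta and BMP receptors, read 771 in mesothelial cells, against 197 in liver cells, 3.91-fold higher. A second probe set of Smad7, of a kind that can cross-hybridise, differed by 3.55 where the one used differed by 1.97.

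All 5 target genes met the 2-fold rule on the mesothelial side, beside 30.0% of all genes. Id genes encode inhibitors of basic helix-loop-helix transcription factors, and Id1, Id2 and Id3 are widely used as readouts of BMP signalling. Id4 differed most of the family, at 281 in mesothelial cells, against 26.3 in liver cells, 10.7-fold higher in mesothelial cells, with 3.42 and 3.84 for its 2 probe sets above the floor. Id3 read 864 in mesothelial cells, against 229.9 in liver cells, 3.76-fold higher. Id2 read 2197 in mesothelial cells, against 701 in liver cells, 3.14-fold higher, while its second probe set above the floor differed by 0.53. Id1 read 305 in mesothelial cells, against 142 in liver cells, a difference of 1.10 that was 0.46 after centring on all probe sets and 0.03 after centring on hybridisation controls, but 1.08 with their paired difference removed. Within the family, the difference of Id4 exceeded that of Id3, the next, by more than the probe set SD, while Id3 and Id2 lay within it. Tgfbi, a matrix adhesion protein induced by TGF-beta, read 2212 in mesothelial cells, against 263 in liver cells, 8.40-fold higher, and its 4 probe sets ranged from 2.62 to 4.25. All but the lowest of them, including the one used, are of a kind that can cross-hybridise.

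The upstream sequences of Id2, Id3 and Id4, and of the feedback gene Smad6, are shown as examples of target and feedback genes called higher in mesothelial cells. Id1 and Smad7 were also called higher and are not shown, so these sequences do not stand for all such genes. Each is the 250 bases before the start of the RefSeq transcript on GRCm38.p6, printed 5′ to 3′ on the gene's strand. Capitals mark GGCGCC, a palindrome of BMP-responsive elements described in the mouse Id1 promoter, and CAGAC or its reverse complement GTCTG, the core of a Smad binding element. The windows are chr12:25096093-25096342 on the minus strand for Id2, chr4:136143572-136143821 on the plus strand for Id3, chr13:48260866-48261115 on the plus strand for Id4 and chr9:64022060-64022309 on the minus strand for Smad6.
Id2: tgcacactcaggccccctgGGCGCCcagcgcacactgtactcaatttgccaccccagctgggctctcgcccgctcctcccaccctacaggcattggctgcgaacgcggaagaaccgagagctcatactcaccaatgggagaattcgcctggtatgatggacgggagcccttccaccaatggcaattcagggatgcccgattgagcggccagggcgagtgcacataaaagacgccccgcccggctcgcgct
Id3: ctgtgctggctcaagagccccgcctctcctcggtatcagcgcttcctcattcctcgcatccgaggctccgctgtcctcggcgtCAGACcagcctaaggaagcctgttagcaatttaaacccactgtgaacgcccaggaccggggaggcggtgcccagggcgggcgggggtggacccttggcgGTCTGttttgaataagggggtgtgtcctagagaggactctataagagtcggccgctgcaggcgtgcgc
Id4: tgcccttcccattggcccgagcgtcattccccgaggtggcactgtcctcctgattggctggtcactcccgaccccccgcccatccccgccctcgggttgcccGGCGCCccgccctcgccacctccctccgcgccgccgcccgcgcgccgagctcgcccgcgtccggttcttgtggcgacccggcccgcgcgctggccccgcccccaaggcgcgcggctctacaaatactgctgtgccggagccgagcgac
Smad6: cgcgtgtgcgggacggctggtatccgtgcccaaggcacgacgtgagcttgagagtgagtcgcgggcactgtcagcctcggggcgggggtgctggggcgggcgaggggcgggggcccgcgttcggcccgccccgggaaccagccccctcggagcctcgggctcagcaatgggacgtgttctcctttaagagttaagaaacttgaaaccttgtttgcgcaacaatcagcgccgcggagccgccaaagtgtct

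Id2 and Id4 each held 1 GGCGCC, Id3 held 2 copies of CAGAC or GTCTG, and Smad6 held neither in this window. Among 32851 promoter windows of the same length, 9.59% held GGCGCC and 42.2% held CAGAC or GTCTG on either strand. Promoter sequences were at hand for 36 of the 47 genes, with 44 windows, of which 11 held GGCGCC and 20 held CAGAC or GTCTG. These windows were also richer in G and C, with a median of 65.4% against 52.4% over all windows, and GGCGCC consists only of G and C. Matches describe the letters of these windows and do not show binding.

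Other genes of the pathway, from a list of 68 with 58 measured, were higher in mesothelial cells less evenly. Of the 58, 24 met the 2-fold rule in favour of mesothelial cells and 2 in favour of liver cells, and 24 were below the floor, with a median difference of 1.09. These are 41.4% and 3.45% of the list, beside 30.0% and 2.53% of all genes, so the share higher in liver cells was near that of all genes. The split of 24 against 2 became 18 against 4 with the arrays centred on all probe sets, beside 15.8% and 6.11% of all genes. It became 16 against 5 by quantile normalization, beside 13.7% and 7.33% of all genes, and 11 against 5 after centring on hybridisation controls, beside 9.62% and 11.8%. With the paired difference of those controls removed it stayed at 24 against 2. Itgb8, an integrin subunit that activates latent TGF-beta, read 88.7 in mesothelial cells, against 6.3 in liver cells, at least 8.45-fold higher in mesothelial cells. Nbl1, a secreted BMP antagonist, was 13.2-fold higher at 152 in mesothelial cells, against 11.5 in liver cells, and Zfyve9, an adaptor that brings Smads to the receptor, was 12.7-fold higher at 418 in mesothelial cells, against 33.0 in liver cells. Pmepa1, a TGF-beta-induced feedback gene, was 12.4-fold higher at 588 in mesothelial cells, against 47.5 in liver cells, although the median over its 3 probe sets was 1.10. Bmp1, a protease that processes procollagen and chordin, was 8.22-fold higher at 312 in mesothelial cells, against 38 in liver cells, although its other probe sets both differed by 1.27.

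In the other direction, Itgb6, the integrin subunit that activates latent TGF-beta on epithelia, read 28.7 in mesothelial cells, against 90.5 in liver cells, 3.15-fold higher in liver cells. Chrdl1, a chordin-like BMP antagonist, read 34.1 in mesothelial cells, against 164 in liver cells, but its 4 probe sets ran from -2.27 to 2.32 and give no settled direction. The activin-type receptor gene Acvr1c, at 37.5 in mesothelial cells, against 61.9 in liver cells, and the Nodal antagonist gene Lefty2, at 37.5 in mesothelial cells, against 50.8 in liver cells, were lower in mesothelial cells by less than 2-fold as deposited. Among the integrin partners of latent TGF-beta, Itgb8 and Itgb6 thus ran in opposite directions, each from a dim signal on one array.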

How the data were processed

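RNA of 2 samples, 1 per group, was hybridised to Affymetrix mouse GeneChip arrays. Per the labels' protocols, 20 ng of total RNA was amplified and labelled with biotin by NuGEN Ovation kits, which can alter transcript ratios. The deposited table holds 1 linear intensity per probe set and array, as its range shows. RMA and Partek are named, without versions, per the submitters' processing notes, and the sources used here do not say how the arrays were scaled. A free-text label describes far younger embryos, and the stated age was used. The number of arrays limits the precision.

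Intensities were taken to log2 (Python 3.11.15, pandas 2.3.3). Of 45101 probe sets, 34945 outside the 64 controls had 1 gene symbol in the platform annotation, 932 had several and 9160 had none. All 47 measured genes matched RefSeq by gene ID with the same symbol. A gene took its probe set with the highest mean log2 intensity over both arrays. A value within the highest of 27 bacterial control probe sets on its array was treated as a bound. The code was tested on simulated arrays. The genes, the roles and the lists were chosen with earlier results of these data known. All 49 genes could be named, and of other pathway genes the 5 largest and 4 smallest differences above the floor and those at least 2-fold higher in liver cells. Of the marker lists, counts, summed intensities and some medians are given, and a few markers are named. The alternatives were other probe set rules, scalings, floors and thresholds. Sequences are RefSeq's for GRCm38.p6.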

Additional observations from a re-analysis of the deposited data

How the results depend on the processing

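With 1 array per group, precision cannot be judged from replicates, and the alternatives show only what the processing does. No paired analysis was possible because each group has 1 array and no result comes from a test. Of the 36 listed genes called higher in mesothelial cells, 21 passed a 4-fold threshold and 20 remained after centring on hybridisation controls, while 36 were called with the median paired difference of the same controls removed. Both uses of the controls were chosen after seeing the data, and they shift the arrays by 1.08 and 0.02. The count stayed between 24 and 37 under the other alternatives, and 0 genes were called higher in liver cells under any. After centring on reference genes, 24 of the 47 genes were called, beside 13.7% of all genes. With the median over probe sets, 25 of the 47 genes were called, beside 22.3% of all genes. By that rule 12 of the 36 lost the call through a smaller difference or a median below the floor. The median difference of 1.86 became 1.09 after centring on reference genes, 1.03 after quantile normalization and 0.79 after centring on hybridisation controls, against 1.84 with their paired difference removed. Quantile normalization moved dim and bright genes unequally, and the others shift every gene alike. Relative to all genes it was 1.20 under each shift of a whole array, 0.96 after quantile normalization and 0.81 with the median over probe sets. Of the 58 other pathway genes, the 24 higher in mesothelial cells, beside 30.0% of all genes, became 13 at 4-fold, beside 10.5% of all genes. They became 11 after centring on hybridisation controls, beside 9.62% of all genes. With a floor at the 75th percentile the count was 14, and no share of all genes is given for that floor. The 2 higher in liver cells, beside 2.53% of all genes, became 0 with the median over probe sets, beside 2.01%. They became 4 after centring on all probe sets, beside 6.11% of all genes. The count was 5 after centring on reference genes or hybridisation controls or after quantile normalization, beside 7.36%, 11.8% and 7.33%. It was 0 with the higher floor and 1 at 4-fold, for which no share of all genes is given. Signal over background limits the 9 genes below the floor, of which Nog and Inhbe read within the bacterial controls on both arrays.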
